A study of Mus musculus with 9 samples.

Results

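The immediate early genes Fos, Fosb, Jun, Junb, Jund, Egr1, Egr2, Atf3, Nr4a1 and Ier2 were followed in right ventricular RNA of 9 female C57BL/6 mice. They were taken by name, with earlier results of these data known, and are 10 of the 18820 genes measured. Sham mice (numbers 620, 624 and 625) had saline injections. MCT mice (640, 641 and 644) had weekly subcutaneous injections of 600 mg/kg monocrotaline, a plant alkaloid that injures pulmonary vessels, for 8 weeks. MCT + NI mice (615, 617 and 619) had the same injections and were fed the nutritional intervention, a diet of equal calories with more protein, added leucine and oligosaccharides and fish oil, while sham and MCT mice were fed the standard semi-synthetic diet. According to the labels all mice arrived at 8 weeks of age and were first injected at 10 weeks, after 2 weeks on their diets. The methods instead give 1 week of diet before the injections. The mice on the arrays were chosen as matched for disease severity. Each mouse had 1 array, so the spread given is the spread between animals. There were no saline-injected mice on the intervention diet, so the diet is compared only among MCT-injected mice.

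Immediate early genes are transcribed within minutes of a stimulus, from factors already present in the cell, and their mRNAs are short-lived. Most encode transcription factors. Proteins of the Fos and Jun families pair into the AP-1 complex, the EGR proteins bind GC-rich sites, Atf3 is a stress-induced repressor and Nr4a1 is an orphan nuclear receptor. In the heart they are known for their quick and transient induction by stretch, pressure load, catecholamines, ischemia and tissue handling. The RNA here was taken after the 8 weeks of injections. The mice were deeply anesthetized before dissection, and the hour of death and the time from death to freezing are not given in the sources used here.

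Promoter sequences from RefSeq (mouse build GRCm38.p6), from 250 bases before to 50 bases after the start, were found for 8 of the 10 genes, all except Egr1 and Ier2. Those of Fos and Nr4a1 are shown because these genes had the largest differences between MCT + NI and MCT mice. Capitals mark a TATA box in Fos and, in Nr4a1, a match to the EGR site on the minus strand.
Fos, chr12:85473640-85473939, plus strand: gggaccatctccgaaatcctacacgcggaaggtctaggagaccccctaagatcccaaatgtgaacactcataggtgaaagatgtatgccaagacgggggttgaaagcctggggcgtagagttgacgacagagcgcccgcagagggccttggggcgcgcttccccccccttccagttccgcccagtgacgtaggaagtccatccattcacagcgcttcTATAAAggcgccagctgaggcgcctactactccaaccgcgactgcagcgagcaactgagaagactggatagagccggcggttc
Nr4a1, chr15:101266596-101266895, plus strand: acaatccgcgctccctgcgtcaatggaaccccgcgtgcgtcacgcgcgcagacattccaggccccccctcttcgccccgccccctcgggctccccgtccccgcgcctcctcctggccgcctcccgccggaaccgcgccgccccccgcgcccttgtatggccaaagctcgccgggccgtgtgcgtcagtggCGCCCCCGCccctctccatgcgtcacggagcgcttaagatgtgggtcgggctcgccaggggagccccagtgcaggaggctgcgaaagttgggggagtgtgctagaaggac
Both strands were searched for 5 motifs, whose matches did not overlap one another, in the first window listed for each gene. The TATA box (TATAAA) lay at position -33 in Fos and at the first transcribed base in Junb, and 14.2% of all 27025 windows held it. An EGR site (GCGNGGGCG) was matched in Nr4a1 at position -60 and in Fosb at position -50, against 5.55% of all windows. No exact match to the AP-1 site (TGANTCA, 7.93% of windows), the cAMP response element (TGACGTCA, 1.88%) or the CArG box (1.57%) was found in these windows of the 8 genes. Egr2 has 5 windows in the table, and 4 of the later ones held a CArG box. A match is a run of letters, not a measured binding site.

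In build GRCm38.p6 the Fos gene lies at chr12:85473890-85477274, Jun at chr4:95049036-95052222 and Nr4a1 at chr15:101253902-101274795, and the window shown for Nr4a1 belongs to a start inside that span. Junb, Jund and Ier2 all lie on chromosome 8. All 10 genes had a single probe set. On the log2 intensity scale 6 of them were at or above the median gene level of 5.42 and 4 were below it (Fosb, Junb, Egr2 and Atf3). Values of different probe sets cannot be ranked as transcript levels, because probes differ in brightness. The table gives no detection call, so whether the dimmest of these genes were detected is unknown. RMA summaries often gave several mice exactly the same value: this held for 12042 of the 18820 genes (64.0%) and for 6 of the 10 members. The arrays also differed in transcripts that mark atrial tissue. The mean log2 level of 6 atrial markers was 10.2 to 11.0 in the sham mice, 10.7 in MCT mouse 644 and 9.16 in MCT + NI mouse 615, and 5.13 to 6.01 in the other 4 mice. Of the 6 markers, Nppa was still 9.93 to 10.43 in those 4 mice. Cardiomyocyte markers were high in every mouse (mean of 5 markers 12.6 to 12.7). Atrial transcripts were therefore unevenly spread over the groups, and values without mice 644 and 615 are given beside several results. Leaving these mice out makes MCT and MCT + NI mice alike in atrial level. The MCT-injected mice are then all low and the sham mice all high. Against sham, group and atrial level cannot be told apart in such fits. In whole tissue, fewer cells of a type cannot be told apart from less RNA per cell.

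MCT and sham mice were compared first, which asks whether the genes were altered at the end of 8 weeks of MCT. None of the 10 immediate early genes passed a Benjamini-Hochberg adjusted p of 0.05 (limma), against 6.26% of all genes. At an unadjusted p of 0.05 it was 1 gene, Jun, against 19.7% of all genes, and Jun was also the only one whose MCT and sham mice did not overlap, against 21.9% of all genes. The differences ran from -0.11 (Fosb) to 0.32 (Nr4a1) on the log2 scale, with 7 above and 3 below 0. Their median was 0.17, against -0.02 over all genes.

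**Figure D1:**
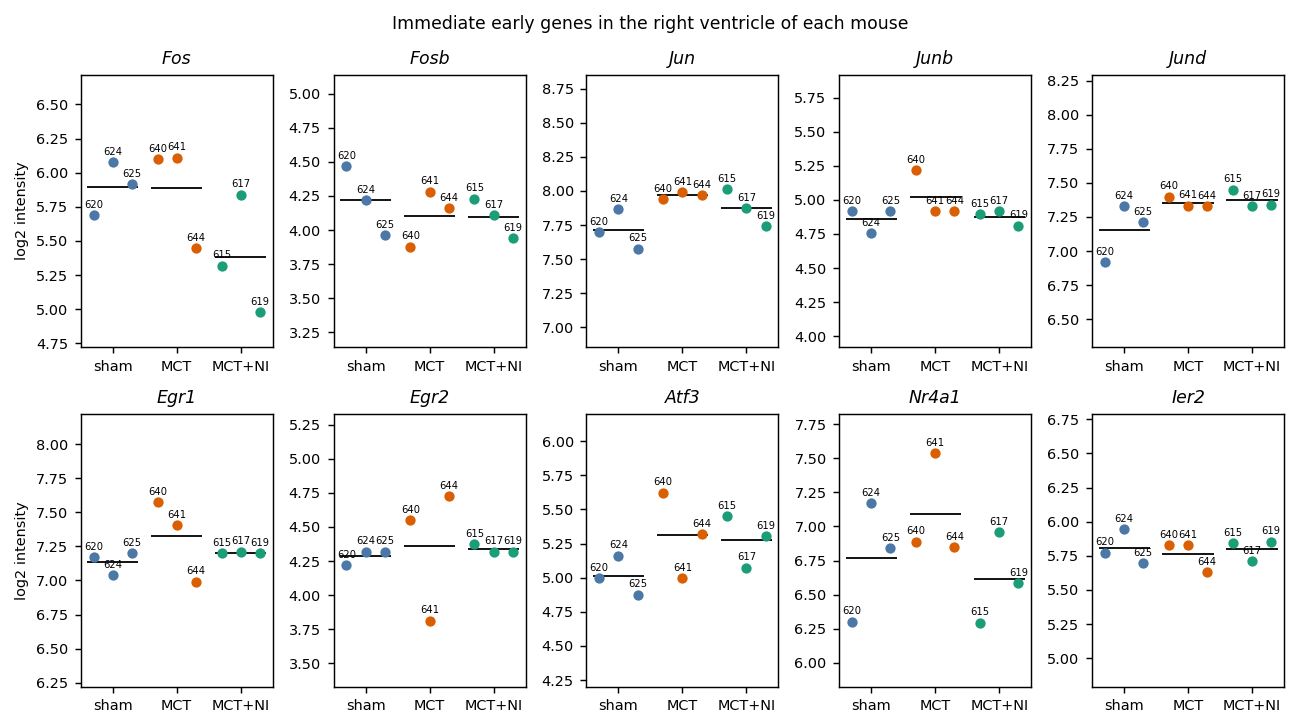
Log2 intensity (vertical axis, each panel spanning 2 log2 units) of the 10 immediate early genes in each mouse, by group (horizontal axis). Points are mice with their numbers and lines are group means. The Jun values of the MCT mice all lie above those of the sham mice, and Fos is lowest in MCT + NI mice 619 and 615 and MCT mouse 644.

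Fos, whose protein pairs with Jun, had almost the same mean in both groups. Its values were 5.69, 6.08 and 5.91 in the sham mice 620, 624 and 625, and 6.10, 6.11 and 5.45 in the MCT mice 640, 641 and 644. The MCT mice thus lay on both sides of the sham mice. The difference was -0.01 (SE 0.24, adjusted p = 0.989), a ratio of 0.994 with a 95% interval of 0.681 to 1.45. Without MCT mouse 644 it was 0.21 (adjusted p = 0.701).

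Fosb, a close relative of Fos, was one of the dimmest of the 10. In the order of mice given above, it read 4.47, 4.22 and 3.96 in sham and 3.88, 4.28 and 4.16 in MCT mice. The highest and the lowest of these 6 values were in sham mouse 620 and MCT mouse 640, and the groups overlapped. The difference was -0.11 (SE 0.15, adjusted p = 0.743).

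Jun, the main DNA-binding partner in AP-1, was 7.70, 7.87 and 7.58 in sham and 7.94, 7.99 and 7.97 in MCT mice. All 3 MCT mice lay above all 3 sham mice. The difference was 0.25 (SE 0.085), a ratio of 1.19 with a 95% interval of 1.04 to 1.36, and the limma adjusted p was 0.135 (unadjusted p = 0.0157). An exact permutation test of 3 against 3 mice gave p = 0.1, the smallest it can give. Leaving out each mouse in turn, the difference lay between 0.18 and 0.33.

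Junb, a Jun protein that often restrains Jun, had 1 value, 4.92, in 5 of the 9 mice. Sham mice read 4.92, 4.75 and 4.92, and MCT mice 5.22, 4.92 and 4.92. Mouse 640 alone stood above the rest, and the difference of 0.15 (SE 0.098, adjusted p = 0.437) was 0.05 without it. Jund, the Jun protein present in resting cells, read 6.92, 7.33 and 7.21 in sham and 7.40, 7.33 and 7.33 in MCT mice. Sham mouse 620 was the low one, and the sham mouse 624 tied with MCT mouse 644. The difference was 0.20 (SE 0.095, adjusted p = 0.291), and 0.08 without mouse 620.

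Egr1, a zinc finger factor induced by growth factors and mechanical load, was 7.17, 7.04 and 7.20 in sham and 7.57, 7.41 and 6.99 in MCT mice. MCT mice 640 and 641 were the highest of all 9 mice and MCT mouse 644 the lowest. The difference was 0.19 (SE 0.13, adjusted p = 0.469), a ratio of 1.14 with a 95% interval of 0.933 to 1.39. Without mouse 640 it was 0.06 (adjusted p = 0.850). Without mouse 644 it was 0.35 (SE 0.071) and passed the threshold, with a limma adjusted p of 0.0298, so that 1 of the 10 genes was called. This call was lost when MCT + NI mouse 615, which also had high atrial transcripts, was left out as well (adjusted p = 0.0548), and with the atrial score as a covariate the difference was -0.05 (adjusted p = 0.904).

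Egr2, a relative of Egr1 known from myelinating Schwann cells, was the gene with the most uneven MCT group. It read 4.22, 4.32 and 4.32 in sham and 4.55, 3.81 and 4.73 in MCT mice. The lowest and the highest of all 9 values were both in MCT mice. The difference was 0.08 (SE 0.20, adjusted p = 0.877), and -0.11 without mouse 644.

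Atf3 was 5.00, 5.16 and 4.88 in sham and 5.62, 5.00 and 5.32 in MCT mice. MCT mice 640 and 644 were above every sham mouse and mouse 641 was level with sham mouse 620. The difference was 0.30 (SE 0.16, adjusted p = 0.353), with a ratio of 1.23 and a 95% interval of 0.956 to 1.59. It was 0.15 without mouse 640 and 0.46 without mouse 641. Nr4a1 read 6.30, 7.17 and 6.84 in sham and 6.89, 7.54 and 6.85 in MCT mice. Here mouse 641 was the highest and sham mouse 620 low, and the groups overlapped. The difference of 0.32 (SE 0.26, adjusted p = 0.559) was the largest of the 10, and its ratio of 1.25 had a 95% interval of 0.825 to 1.89. It was 0.10 without mouse 641, 0.09 without mouse 620, 0.52 without mouse 624 and 0.44 without mice 644 and 615. Ier2, a small nuclear protein of the early growth factor response, was 5.77, 5.94 and 5.70 in sham and 5.83, 5.83 and 5.63 in MCT mice, a difference of -0.04 (SE 0.089, adjusted p = 0.849).

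**Figure D2:**
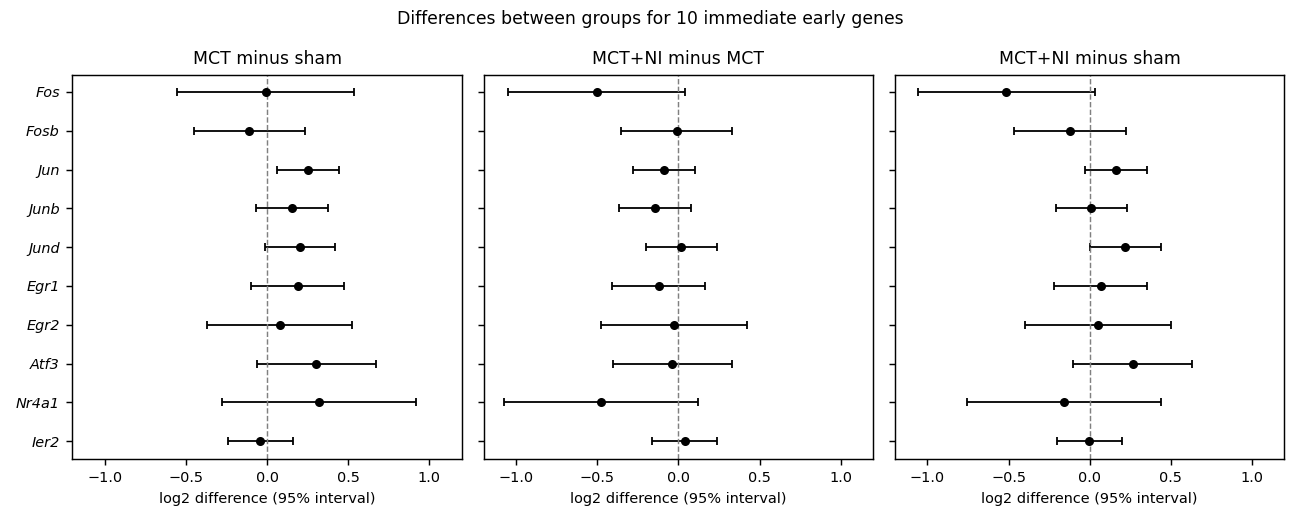
Log2 difference (horizontal axis) of each immediate early gene between MCT and sham, MCT + NI and MCT, and MCT + NI and sham mice, from limma. Points are differences and bars 95% intervals not adjusted for the number of genes. Intervals leave out 0 for Jun between MCT and sham and for Jund between MCT + NI and sham mice, and the widest belong to Nr4a1 and Fos.

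The effect of the diet was asked by comparing MCT + NI with MCT mice. None of the 10 genes passed the adjusted threshold, and neither did any other gene (0% of all genes, limma). At an unadjusted p of 0.05 no member passed either, against 2.9% of all genes, and in no member were the groups apart, against 6.08% of all genes. The differences were below 0 for 8 of the 10 genes and above 0 for Jund (0.02) and Ier2 (0.04). Their median was -0.06, against -0.005 over all genes.

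Fos and Nr4a1 had the largest differences with the diet. Fos was 5.32, 5.84 and 4.98 in MCT + NI mice 615, 617 and 619, where mouse 617 was level with the sham mice and mouse 619 was the lowest of all. The difference from MCT mice was -0.50 (SE 0.24, adjusted p = 1), a ratio of 0.705 with a 95% interval of 0.483 to 1.03, and MCT mouse 644 overlapped with the diet group. It was -0.30 without mouse 619, -0.72 without mouse 644, -0.73 without mouse 617 and -0.69 without mice 644 and 615, and no adjusted p was under 0.05. Nr4a1 was 6.30, 6.96 and 6.59 in these mice, and mouse 617 was again the highest of the group. Its difference was -0.48 (SE 0.26, adjusted p = 1), a ratio of 0.718 with a 95% interval of 0.474 to 1.09. Without MCT mouse 641 it was -0.26.

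The other 8 genes differed by -0.14 (Junb) to 0.04 (Ier2) between MCT + NI and MCT mice. Jun was 8.01, 7.88 and 7.74 with the diet, so mouse 615 stood above the MCT mice and mouse 619 within the sham range. Its difference was -0.09 (SE 0.085), with a 95% interval of -0.28 to 0.10, and it was -0.02 without mouse 619 and -0.15 without mice 644 and 615. Atf3 differed by -0.04, and by -0.12 without mice 644 and 615. Egr1 was 7.20, 7.21 and 7.20, a very narrow range between the low and high MCT mice, and its difference of -0.12 had an interval of -0.41 to 0.17. It was -0.29 without mouse 644 and 0.0044 without mouse 640. Junb was 4.89, 4.92 and 4.81 and Egr2 4.37, 4.32 and 4.32 with the diet. In both genes the diet group lay close to the sham values. Atf3 was 5.45, 5.07 and 5.31, Fosb 4.23, 4.11 and 3.94, Jund 7.45, 7.33 and 7.34 and Ier2 5.85, 5.71 and 5.85 in the same 3 mice, and all of these overlapped with MCT mice.

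MCT + NI mice were also set against the same sham mice. None of the 10 genes passed the adjusted threshold, against 6.26% of all genes. Jund was the 1 gene under an unadjusted p of 0.05, against 19.5% of all genes, with a difference of 0.22 (SE 0.095, adjusted p = 0.247), which was 0.10 without sham mouse 620. None was without overlap, against 21% of all genes: the lowest Jund value with the diet, 7.33 in mouse 617, was tied with sham mouse 624. Fos differed by -0.51 (SE 0.24, adjusted p = 0.290), Jun by 0.16 (adjusted p = 0.346) and Atf3 by 0.26 (adjusted p = 0.429). Fos was -0.31 without mouse 619, and Jun 0.09 without sham mouse 625 and 0.10 without mouse 615. The 10 differences ran from -0.51 to 0.26 with a median of 0.03. The comparisons share the sham or the MCT mice, so their values are not independent of one another.

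Most of these genes varied more between mice of 1 group than the median gene did. The standard deviation within groups was above that of the median gene (0.113) for 9 of the 10 genes, all except Ier2 (0.110). It was 0.388 for Nr4a1 and 0.351 for Fos, higher than in 98.0% and 97.3% of all genes, and 0.282 for Egr2 and 0.227 for Atf3. Jun (0.115) and Junb (0.119) were close to the median gene. Of the variable genes Nr4a1, Fos and Egr1 (0.180) were above the median level. The 3 mice per group limit the precision.

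No mouse was high or low in all of these genes. Mouse 640 had the highest value in Junb, Egr1 and Atf3 and the lowest in Fosb. Mouse 641 was highest in Fos and Nr4a1 and lowest in Egr2. Among the MCT + NI mice, 615 was highest in Jun and Jund and lowest in Nr4a1. Averaged over the 10 genes, deviations from the mean of the 9 mice ran from -0.12 in MCT + NI mouse 619 and -0.11 in sham mouse 620 to 0.17 in MCT mouse 640.

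**Figure D3:**
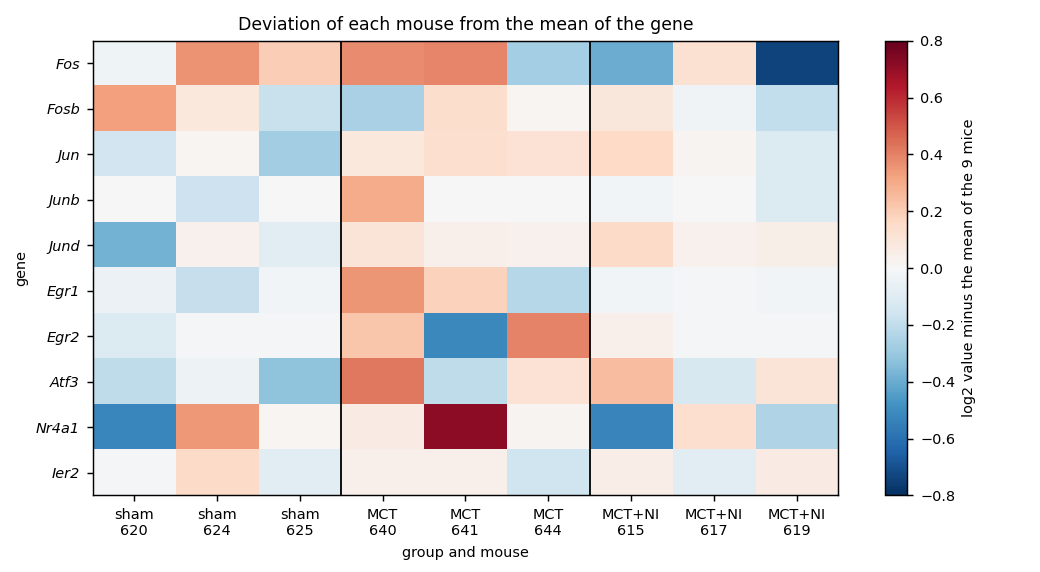
Deviation of each mouse (columns, by group) from the mean of the 9 mice for each immediate early gene (rows), in log2 units by colour, red above and blue below. No column has a single colour. Mouse 619 is lowest in Fos and mouse 641 highest in Nr4a1.

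Over the 9 mice the 45 pairs of members had a median Pearson r of 0.15, ranging from -0.53 to 0.77, with 31 pairs above 0. No pair passed after adjustment over the 45 pairs (smallest adjusted p = 0.744, exact permutation), and 3 had an unadjusted exact p under 0.05. Fos and Nr4a1 were one of them, with r = 0.67 (exact p = 0.0491) and Spearman's rho of 0.78 (exact p = 0.0172, adjusted over the pairs 0.338). Leaving out the 2 mice farthest from the median of Fos, r was 0.60, and over deviations from group means it was 0.64. Junb and Egr1 had r = 0.77 (exact p = 0.0225) but rho of 0.50 (exact p = 0.175, adjusted 0.833), and r fell to -0.01 without the 2 farthest mice, so the relation rests on those mice, of which mouse 640 is the highest in both genes. Jun and Jund had r = 0.65 (exact p = 0.0496) and rho of 0.70 (exact p = 0.0448, adjusted 0.473), with r = 0.45 without the 2 mice farthest from the median of Jun and r = 0.39 within groups.

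**Figure D4:**
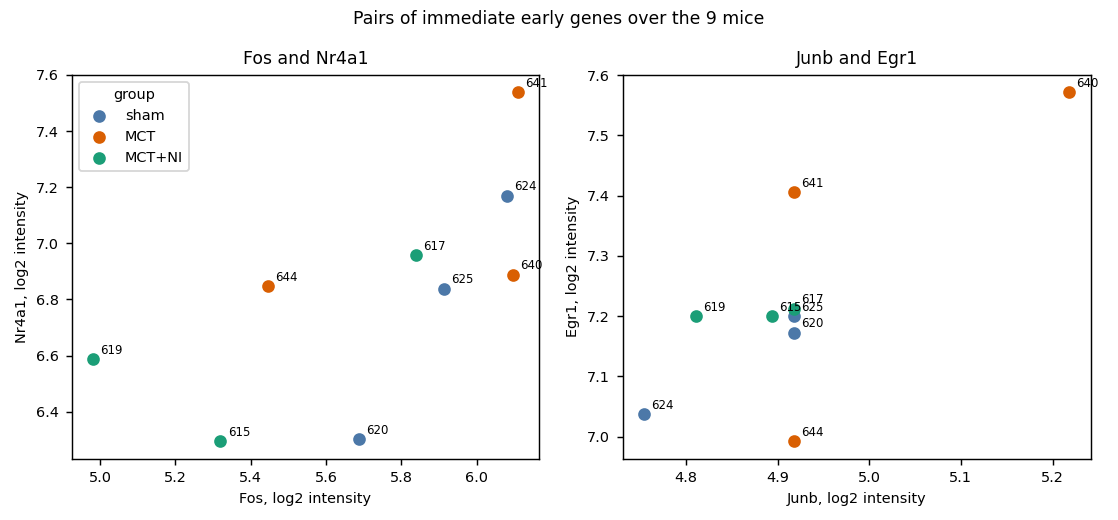
Log2 intensity of Nr4a1 against Fos (left) and of Egr1 against Junb (right) over the 9 mice, coloured by group and labelled with mouse numbers. On the left r is 0.67 and the MCT + NI mice 615 and 619 are low in both genes. On the right r is 0.77, and mouse 640 lies apart from mice that share 1 Junb value.

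Circadian genes varied over the same mice. The clock score, the mean deviation of the measured clock genes other than the activators Arntl, Npas2 and Clock, was -0.90, -0.60 and -0.47 in mice 619, 615 and 644, the 3 mice with the lowest Fos. It was 0.10 to 0.74 in the sham mice, 0.63 in MCT + NI mouse 617, 0.28 in mouse 641 and -0.38 in mouse 640. Mouse 640 thus had a low clock score with high Fos. With the clock score as a covariate, a fit added after the values were seen, Fos differed by -0.17 (adjusted p = 0.817) between MCT + NI and sham, by -0.46 (adjusted p = 0.997) between MCT + NI and MCT and by 0.29 (adjusted p = 0.575) between MCT and sham mice. Per1, which is both a clock gene and an immediate early gene, read 8.59, 7.93 and 7.45 in sham, 6.52, 7.56 and 7.26 in MCT and 6.28, 7.94 and 6.11 in MCT + NI mice, so its lowest values were also in mice 619 and 615. Of 12 clock genes none passed the adjusted threshold in any comparison, where 6.26% of all genes passed against sham. Their median difference from sham was -0.55 in MCT and -0.62 in MCT + NI mice, with 9 of 12 below 0 in both. At an unadjusted limma p of 0.05, 3 were lower in each, against 19.7% and 19.5% of all genes. In 3 of them every MCT mouse lay below every sham mouse, where 21.9% of all genes had no overlap. With the diet this held for 0, against 21% of all genes. Of 8 heat shock genes, another stress response, none passed the adjusted threshold either, with a median difference of 0.07 between MCT and sham mice.

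The genes most like the average of the 10 members over the 9 mice were Chmp3 (r = 0.90), an endosomal sorting protein, Fam32a (r = 0.89), B930095G15Rik (r = 0.88), the splicing factor gene Sf3b4 (r = 0.87), Zfyve27 (r = 0.87), the kinase gene Akt1 (r = 0.86), Rbm8a (r = 0.86) and Plce1 (r = 0.85). The most opposite were Chchd10 (r = -0.95), Ints1 (r = -0.93) and Lias (r = -0.92), of which Chchd10 and Lias encode mitochondrial proteins. They were picked from 9404 genes at or above the median level as the extremes, so these are descriptions with no test.

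The genes around the members were then counted by role. Their lists were drawn up with earlier results of these data known, so the counts are descriptions and no test of the lists. The kinases and factors that switch immediate early genes on include members of the MAP kinase pathways, Creb1, Srf and its partners. Of 15 measured, 1 rose and 1 fell between MCT and sham mice, where 6.26% of all genes passed in either direction, and the median was 0.04. Rps6ka5 (MSK1, a kinase that phosphorylates Creb1 and histone H3 at immediate early genes) was 6.56, 6.83 and 6.76 in sham and 5.94, 6.11 and 6.24 in MCT mice. The groups did not overlap, and the difference was -0.62 (SE 0.11, limma adjusted p = 0.0108). Rps6ka3 (RSK2, a ribosomal S6 kinase) was 7.67, 7.94 and 7.89 in sham and 8.27, 8.35 and 8.16 in MCT mice, 1.34-fold higher (adjusted p = 0.0195). Leaving out each mouse in turn, the Rps6ka3 difference was 0.34 to 0.48, and it no longer passed without MCT mouse 640 or 641 (adjusted p up to 0.0773). In MCT + NI mice the same genes differed from sham by -0.63 and 0.44 (adjusted p = 0.0108 and 0.0171), neither of which passed without mouse 615 or 619 (adjusted p up to 0.0528 and 0.0753). Both calls were lost with the atrial score or the clock score as a covariate (adjusted p up to 0.110 and 0.131 in MCT mice).

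AP-1 has further partners in the Fos, Atf and Maf families. None of the 10 measured passed between MCT and sham mice or between MCT + NI and sham mice (median 0.07 in both). Among 17 other immediate early transcription factors, such as Myc, Egr3 and several Klf genes, 1 rose between MCT and sham mice, a share near the 6.26% of all genes that passed, and the median was 0.10. This was Bhlhe40, a repressor that is also tied to the clock, at 7.88, 7.93 and 8.14 in sham and 8.29, 8.56 and 8.26 in MCT mice. It was 1.31-fold higher with an adjusted p of 0.0470, but the call was lost in 17 of 21 alternatives, including the fits without any 1 mouse other than sham mouse 625 (difference 0.29 to 0.46, adjusted p 0.0352 to 0.141). With the diet Bhlhe40 was 8.00, 8.10 and 7.95, below every MCT mouse, a difference of -0.35 that did not pass. Between MCT + NI and MCT mice 2 of the 17 were lower at an unadjusted limma p of 0.05, and 1 had no overlap. Over all genes these shares were 2.9% and 6.08%.

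A further list held immediate early phosphatases, kinases, RNA-binding and secreted proteins. Of 32 measured, 6 rose and none fell between MCT and sham mice, with a median of 0.10, where 6.26% of all genes passed in either direction. At an unadjusted limma p of 0.05, 9 were higher and 3 lower, against 19.7% of all genes. Every MCT mouse was below every sham mouse in 2, Arc (mean 4.76 against 5.28) and Homer1 (7.55 against 7.94), and above in 8, against 21.9% of all genes without overlap. Ptgs2 was also lower on average (5.16 against 5.87), with overlap. By quantitative RT-PCR the authors reported the other direction for this gene (COX-2), a tendency to more mRNA in MCT mice that was not significant. Dusp6, a phosphatase that dampens MAP kinase signalling, was 6.44, 6.47 and 6.40 in sham and 7.21, 7.27 and 7.34 in MCT mice. The sham mice lay close together and far below the MCT mice, and the gene was 1.79-fold higher (SE 0.075 on the log2 scale, limma adjusted p = 0.000418). Rhob, a small GTPase of endosomes and the cytoskeleton, was 7.91, 7.69 and 7.88 in sham and 8.45, 8.52 and 8.33 in MCT mice, 1.53-fold higher (adjusted p = 0.00177). Plk3, a stress-responsive kinase, was 5.31, 4.93 and 4.90 in sham and 5.82, 5.84 and 5.95 in MCT mice, 1.77-fold higher (adjusted p = 0.00303). These 3 genes passed in all 21 alternatives against sham mice. Sik1, a kinase induced by cAMP, was 1.24-fold higher (adjusted p = 0.0109), and did not pass with the atrial score as a covariate or without mice 644 and 615 (adjusted p up to 0.0764). The other 2 were Sgk1 (1.48-fold, adjusted p = 0.0142) and Plk2 (1.46-fold, adjusted p = 0.0469). Sgk1 did not pass without mouse 640 or 641 (adjusted p up to 0.0518), and Plk2 was lost without any of 7 mice (adjusted p up to 0.164). Both calls were also lost with the atrial score as a covariate, and that of Sgk1 without mice 644 and 615. The highest limma adjusted p over all alternatives was 0.117 for Sgk1 and 0.199 for Plk2.

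Of these 6 genes 4 also passed between MCT + NI and sham mice. In MCT + NI mice Dusp6 was 7.36, 7.22 and 7.52, 1.91-fold above sham (adjusted p = 0.000253). Rhob was 1.54-fold and Plk3 1.78-fold above sham (adjusted p = 0.00171 and 0.00288), and Sgk1 1.63-fold (adjusted p = 0.00466). The Sgk1 call was lost with the atrial score as a covariate (limma adjusted p = 0.0731). Sik1 (0.17, adjusted p = 0.121) and Plk2 (0.46, adjusted p = 0.0894) did not pass. Btg1 (1.26-fold, adjusted p = 0.0409) was the fifth gene that rose and was not among the 6, and its call was lost in 14 of 21 alternatives, 7 of them fits without 1 mouse (adjusted p up to 0.118). None of the 32 passed between MCT + NI and MCT mice, and the median there was -0.06.

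Targets of AP-1 and EGR1, with their co-repressors, were the last list. Of 19 measured, 6 rose and none fell between MCT and sham mice, against 6.26% of all genes passing in either direction, and the median was 0.33. Ccnd1 (cyclin D1, which drives entry into the cell cycle) was 7.78, 7.51 and 7.63 in sham, 10.55, 10.64 and 10.22 in MCT and 10.50, 10.29 and 10.54 in MCT + NI mice. Every MCT-injected mouse was more than 2 log2 units above every sham mouse. It was 7.11-fold higher in MCT and 7.00-fold higher in MCT + NI than in sham mice (limma adjusted p = 7.08e-06 and 6.81e-06). Plau (urokinase, a protease) was 2.90-fold and 3.03-fold higher, and Hmox1 (heme oxygenase) 1.77-fold and 1.85-fold higher (adjusted p up to 0.000810). These 3 passed in all 21 alternatives. Plaur, the urokinase receptor, was 1.89-fold higher in MCT mice and passed in all of them there, and it was 1.70-fold higher in MCT + NI mice, where it did not pass without mouse 624, 615 or 619 (adjusted p up to 0.0714). The remaining calls were Tgfb1 (1.57-fold and 1.49-fold, not passing without any 1 of 4 mice in either comparison, adjusted p up to 0.0676 in MCT mice) and Lif in MCT mice (1.46-fold, adjusted p = 0.0486, lost without any of 8 mice, adjusted p up to 0.159). Plaur in MCT + NI mice, Tgfb1 in both comparisons and Lif in MCT mice were also lost with the atrial score as a covariate. Without mice 644 and 615 they did not pass either. The highest limma adjusted p over all alternatives was 0.112 for Plaur, 0.140 for Tgfb1 (with the diet) and 0.236 for Lif. The genes of this list have many other regulators, and no binding was measured. None of the 19 passed between MCT + NI and MCT mice.

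**Figure D5:**
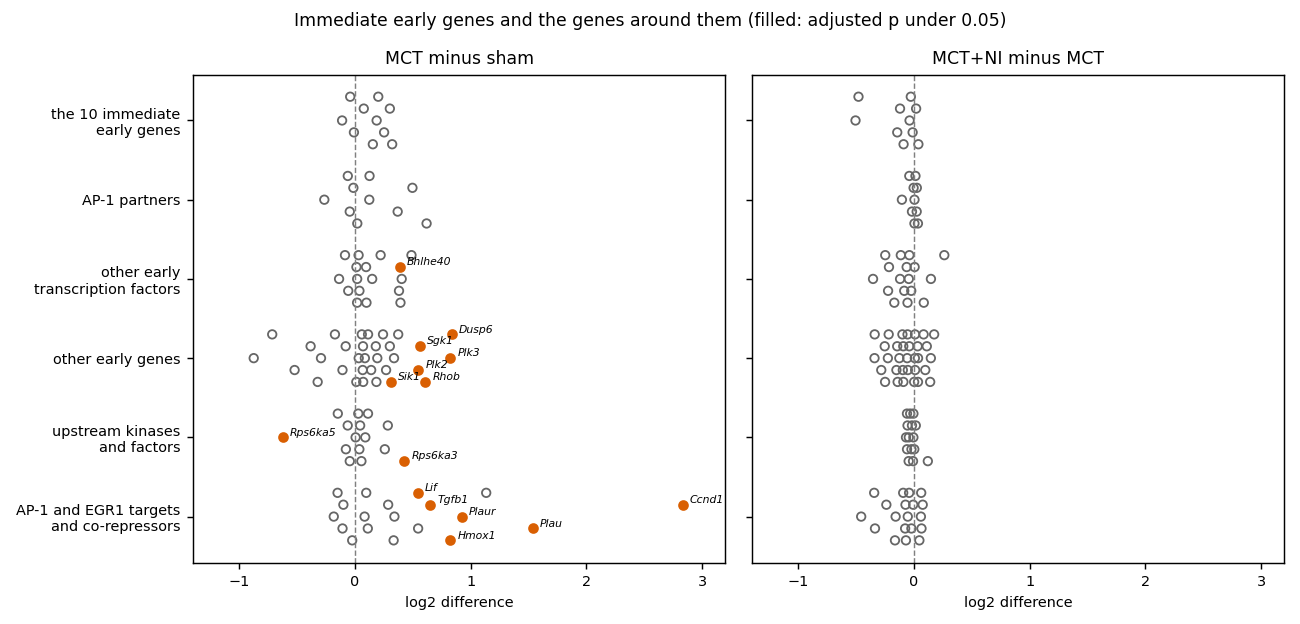
Log2 differences (horizontal axis) between MCT and sham (left) and MCT + NI and MCT mice (right) for the 10 immediate early genes and 5 lists of related genes (rows). Each point is a gene, filled and named where the limma adjusted p is under 0.05, and the height within a row has no meaning. No point of the top row is filled, and no point is filled on the right.

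Some markers of other cells rose in the same comparison as these related genes, and others were lower. Between MCT and sham mice 2 of 6 endothelial markers (Cdh5 and Pecam1), 1 of 6 fibroblast markers (Col1a1), 3 of 6 smooth muscle and pericyte markers (Pdgfrb, Rgs5 and Tagln) and 2 of 6 macrophage markers (Cd68 and C1qb) rose, and 1 of 5 cardiomyocyte markers (Ryr2) fell by 0.17 on the log2 scale, where 6.26% of all genes passed. In the same lists the endothelial Tek (-0.47, adjusted p = 0.0935) and Tie1 (-0.07, adjusted p = 0.349) and the macrophage gene Csf1r (-0.28, adjusted p = 0.156) had every MCT mouse below every sham mouse without passing. So did the fibroblast marker Pdgfra (mean 8.05 in MCT, 8.24 in sham) and the cardiomyocyte markers Tnnt2 and Tnni3. The smooth muscle marker Cnn1 was lower on average (5.63 in MCT, 5.84 in sham), with overlap, and the other 5 of its list were higher. Every MCT mouse was above every sham mouse for 3 endothelial, 2 fibroblast, 5 smooth muscle and pericyte and 5 macrophage markers. Over all genes 21.9% had no overlap. Between MCT + NI and sham mice, where 6.26% of all genes also passed, 3 endothelial markers (Cdh5, Pecam1 and Kdr), 1 fibroblast marker (Col1a1) and 3 smooth muscle and pericyte markers (Pdgfrb, Rgs5 and Acta2) rose. Tek and Csf1r fell there (adjusted p = 0.0348 and 0.0403), and no macrophage marker rose. Pdgfra, Tie1, Tnnt2 and Ryr2 again lay below every sham mouse, without passing. Cnn1 was again lower on average (5.39 with the diet), with overlap, and the other 5 of its list were higher. It was under an unadjusted limma p of 0.05, against 19.5% of all genes. Above every sham mouse lay 3 endothelial, 2 fibroblast, 5 smooth muscle and pericyte, 3 macrophage and 1 cardiomyocyte markers, where 21% of all genes had no overlap. The summed level of the endothelial markers was 11.5 to 11.7 in sham, 12.0 to 12.1 in MCT and 12.0 to 12.2 in MCT + NI mice on the log2 scale, and that of the macrophage markers 10.0 to 10.3, 10.4 to 10.8 and 10.3 to 10.7. For fibroblast markers it was 12.2 to 12.3, 12.3 to 12.6 and 12.3 to 12.4, and for smooth muscle and pericyte markers 11.7 to 11.8, 12.1 to 12.3 and 12.3 to 12.5. The part of these cells in the rise of Dusp6, Rhob, Plk3, Ccnd1, Plau and Hmox1 was not tested.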

How the data were processed

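Right ventricular RNA was hybridised to Affymetrix mouse gene 1.1 ST arrays, 1 per mouse. The deposited values are log2 intensities that the authors computed by RMA (background correction, quantile normalization, summary per probe set), with no version given in the sources used here. Although an Entrez-based redefinition of the probe sets is described, the table lists 35556 manufacturer probe sets, which were named through the platform annotation: 12457 had no gene, 1881 several and 21218 a single gene, giving 18820 genes, of which 1386 had several probe sets and were represented by the brightest. Labels and methods name different RNA and labelling kits and differ in the weeks of diet before injection.

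limma 3.58.1 (R 4.3.3) fitted a mean per group over 9 arrays with an intensity trend. P-values are two-sided and Benjamini-Hochberg adjusted over all 18820 genes, with a threshold of 0.05. The procedure was tested on simulated data. Alternatives changed the limma settings, the genes and arrays used, the normalization, the rule for probe sets and the covariates (atrial or clock score). Pairs of members were compared by exact permutation (Python 3.11.15, scipy 1.17.1). Members, lists, tests and alternatives were chosen with earlier results of these data known. Every member is named, as are list genes that passed (up to 4 per list and comparison, and the few beyond these, chosen after their values were seen) and the 8 most and 3 least alike genes. Intervals cover the spread between mice.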

Additional observations from a re-analysis of the deposited data

How the results depend on the processing

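None of the 10 immediate early genes passed the adjusted threshold in any comparison under any alternative, with 1 exception: leaving out each mouse in turn, the number called between MCT and sham mice was 0 to 1, the 1 being Egr1 without MCT mouse 644. No pair of members passed in any alternative of the correlation. No paired analysis was possible because the groups share no mouse numbers. Some differences changed sign, and the cause was not tested. Between MCT + NI and MCT mice Fosb was 0.0043 after another quantile normalization, 0.0019 after centring on the median, 0.0087 with array weights and 0.0077 with the clock score as a covariate, and Egr2 was 0.0058 after another quantile normalization. Between MCT and sham mice Egr1, 0.19 in the main fit, was -0.049 with the atrial score as a covariate. With the clock score, an alternative added after seeing the data, Fos was 0.29, Fosb 0.011 and Egr2 -0.079 in that comparison. Without mice 644 and 615 Fos was 0.21, Egr2 -0.11 and Ier2 0.026 between MCT and sham, and Jund -0.031, Egr2 0.14 and Ier2 -0.050 between MCT + NI and MCT mice. Leaving out 1 mouse at a time, the difference between MCT and sham mice lay between -0.12 and 0.21 for Fos, -0.24 and 0.015 for Fosb, -0.11 and 0.35 for Egr2 and -0.095 and 0.029 for Ier2. Between MCT + NI and MCT mice it lay between -0.12 and 0.077 for Fosb, -0.019 and 0.042 for Jund, -0.29 and 0.0044 for Egr1, -0.30 and 0.16 for Egr2, -0.19 and 0.12 for Atf3 and -0.029 and 0.085 for Ier2. The direction of Jun, Junb, Nr4a1 and Atf3 between MCT and sham mice and of Fos and Nr4a1 between MCT + NI and MCT mice held in every alternative. Of the genes related to the members, Dusp6, Rhob, Plk3, Ccnd1, Plau and Hmox1 passed against sham in all 21 alternatives. The targets called between MCT + NI and sham mice were 3 instead of 5 without sham mouse 624, without MCT + NI mouse 615 or without mouse 619. Plaur and Tgfb1 were also lost there with the atrial score as a covariate and without mice 644 and 615. With 3 mice per group and no detection call, small differences in these variable genes could not be resolved.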
